A study of Mus musculus with 76 samples.

Results

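Tumours grown from a RON receptor were compared with tumours grown from a fibroblast growth factor (FGF) receptor, using 30 of the 76 arrays of a mouse tumour series. The members were chosen by the gene that the labels say was introduced. They are the 12 arrays labelled RONd160 or RON+MSP and the 18 arrays labelled FGFR2aIIIb, FGFR2aIIIc or FGFR3, with 6 arrays in each of these 5 groups. The groups on each side were weighted equally. The other 46 arrays belong to 8 groups that received ErbB3, FAK1, HER2, MAP3K11, MAP3K7, PIP5K1B, RSK2 or TNK2.

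All tumours came from C57BL/6 mice and from a model known as directed complementation. The parental tumour was driven by a HER2(V659E) oncogene under doxycycline control. Doxycycline was then withdrawn, which silenced HER2, and a second gene was introduced and tested for its ability to keep the tumour growing. All 13 groups share this history, and the 5 groups compared here are all labelled as free of cachexia. The titles divide the arrays into T1, T2 and T3 without saying what these stand for. Arrays are described there as biological replicates, yet no animal, tumour line or promoter of the introduced gene is named. The p-values therefore reflect the scatter of these arrays alone, some of which may be technical.

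RON, encoded by Mst1r, is a receptor tyrosine kinase of the MET family, and its ligand is macrophage-stimulating protein (MSP), encoded by Mst1. RONd160 is a splice form that lacks part of the extracellular region and signals without ligand, whereas the RON+MSP tumours carry receptor and ligand together. FGFR2 and FGFR3 are receptors for fibroblast growth factors, and the IIIb and IIIc forms of FGFR2 differ by an alternative exon in the ligand-binding domain, with IIIb typical of epithelium and IIIc of mesenchyme. Both receptor families feed the RAS-ERK and PI3K-AKT cascades. FGF receptors do so mainly through the docking protein FRS2.

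Hypoxia and glycolysis genes formed the gene list with the most calls between the 2 sides, 10 of 24 members. Most of these genes are known targets of the hypoxia-inducible factors, which bind a short DNA core that has more than 1 form. The form GCGTG was not searched. The core searched for here is the form ACGTG or its reverse complement CACGT. The 250 bases upstream of the start of 5 called members are shown so that this core can be seen, in capitals, where it occurs. They are RefSeq sequences of GRCm38.p6. Slc2a1 lies at chr4:119108495-119108744, plus strand, Ero1a at chr14:45318573-45318822, minus strand, Hk2 at chr6:82774455-82774704, minus strand, P4ha1 at chr10:59323046-59323295, plus strand and Adm at chr7:110627407-110627656, plus strand.
Slc2a1: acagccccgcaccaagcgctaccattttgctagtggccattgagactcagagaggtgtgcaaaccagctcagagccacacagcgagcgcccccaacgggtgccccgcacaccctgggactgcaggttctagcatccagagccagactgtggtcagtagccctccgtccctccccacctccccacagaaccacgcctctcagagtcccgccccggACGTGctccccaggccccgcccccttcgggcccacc
Ero1a: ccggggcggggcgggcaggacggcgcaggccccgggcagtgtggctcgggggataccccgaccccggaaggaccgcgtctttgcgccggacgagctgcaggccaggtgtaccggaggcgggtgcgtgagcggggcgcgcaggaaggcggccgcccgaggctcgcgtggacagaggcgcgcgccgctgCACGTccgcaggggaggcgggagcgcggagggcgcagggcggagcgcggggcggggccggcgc
Hk2: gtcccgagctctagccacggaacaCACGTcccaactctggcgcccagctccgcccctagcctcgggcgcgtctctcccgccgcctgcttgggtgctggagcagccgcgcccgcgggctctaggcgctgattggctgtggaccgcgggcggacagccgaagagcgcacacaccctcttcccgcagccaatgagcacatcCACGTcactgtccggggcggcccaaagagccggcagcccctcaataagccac
P4ha1: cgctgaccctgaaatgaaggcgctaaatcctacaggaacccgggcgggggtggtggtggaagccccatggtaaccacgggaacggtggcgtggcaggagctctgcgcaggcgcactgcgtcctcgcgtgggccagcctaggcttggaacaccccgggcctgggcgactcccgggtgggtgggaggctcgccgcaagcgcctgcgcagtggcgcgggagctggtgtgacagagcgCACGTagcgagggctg
Adm: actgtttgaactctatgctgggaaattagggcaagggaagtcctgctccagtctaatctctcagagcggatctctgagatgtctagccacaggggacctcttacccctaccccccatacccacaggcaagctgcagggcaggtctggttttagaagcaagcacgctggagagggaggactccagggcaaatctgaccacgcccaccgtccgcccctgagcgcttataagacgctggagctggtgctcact
The Hk2 window holds the core 2 times, those of Slc2a1, Ero1a and P4ha1 hold it 1 time each, and the Adm window does not hold these letters. Both strands were searched for this form alone, so a window without it may hold another form. Of the 24 members tested, 23 had a promoter in the table, and 14 of these held the core in at least 1 promoter. It occurred in 5 of the 9 called members with a promoter. Among tested genes with a promoter, 23.9% of 11111 held it, and 16.6% of all 32851 promoters of that length did. A match describes the sequence and does not show that a factor binds there.

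RNA was hybridised to an array of 45101 probe sets, and all values are log2 values as deposited, so that a difference of 1 is a 2-fold change. Array medians lay between 5.45 and 5.56 over the series, and the values of 3 background control probe sets had a median of 2.95. Of 18194 genes with a probe set of their own, 13868 passed the filter on low values and were tested with limma. Adjusted p-values are Benjamini-Hochberg values over these genes, and a gene is called where that value is under 0.05. The epithelial keratins were high on both sides, with Krt8 between 12.43 and 13.27 in RON arrays and between 12.40 and 12.98 in FGF receptor arrays. Krt18 spanned 10.95 to 13.48 and 11.65 to 13.03, and Epcam 6.70 to 7.61 and 6.82 to 7.54.

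The 7 mouse probe sets of Mst1r, Mst1, Fgfr2 and Fgfr3 did not check the labels, because none stood above the spread of tumours that did not receive the gene. Mst1r averaged 4.42 ± 0.16 (SD, n = 6) in RONd160 and 4.30 ± 0.23 in RON+MSP, against 3.97 to 4.39 in the FGF receptor groups. The brightest Fgfr2 probe set averaged 5.71 ± 0.05 in FGFR2aIIIb and 5.75 ± 0.11 in FGFR2aIIIc, against 5.96 ± 0.28 in RONd160. Fgfr3 averaged 5.04 ± 0.10 in FGFR3 tumours and 5.0 ± 0.20 in RONd160 on its brighter probe set. Whether the introduced genes are of mouse sequence within these probe sets is not stated in the labels.

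Within each group the arrays fell into pairs that shared a pattern of median level per chromosome, and they were matched on the correlation of that pattern over autosomes. It ran from 0.792 to 0.991 within the 15 pairs (median 0.972), as the matching favours, and from -0.58 to 0.931 between other arrays of a group (median 0.376). No pair shared a T label. Arrays of a pair were treated as related in every test, through a random block. The plot of chromosome medians also shows an exception that crosses the labels: pair 3 of FGFR3 resembled pair 3 of RON+MSP, with correlations between 0.822 and 0.935, as closely as it resembled FGFR3 pair 2, between 0.873 and 0.931. Results are given with these 2 pairs. Without both, a choice made after seeing the data, 1014 genes were called in place of 834. Of the 84 called genes named here, 7 lost their call, which is said beside each. FGFR3 pair 2 was kept in that fit, although it also resembled FGFR3 pair 3. Leaving out FGFR3 pair 3 alone gave 1071 calls.

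**Figure D1:**
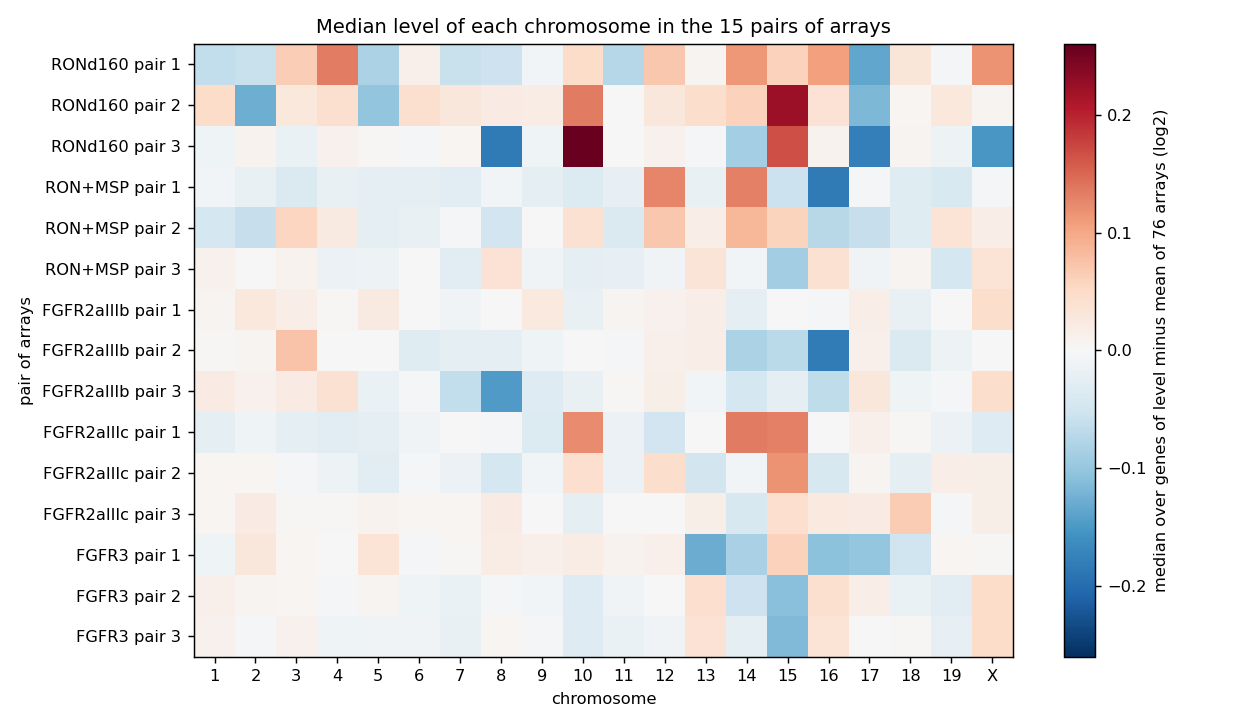
Median level of each chromosome in the 15 pairs of arrays, as the difference in log2 units from the mean of all 76 arrays, with pairs as rows and chromosomes as columns. The 3 RONd160 pairs are at -0.136, -0.117 and -0.177 on chromosome 17, and FGFR3 pairs 2 and 3 and RON+MSP pair 3 share low values on chromosome 15, from -0.115 to -0.091.

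RON and FGF receptor tumours differed by many modest changes and a small set of large ones. The comparison called 834 genes, or 6.01% of those tested, with 316 higher in RON tumours (2.28%) and 518 lower (3.74%). The median size of a called difference was 0.38, and 66 called genes differed by at least 1 log2 unit, 27 of them higher and 39 lower. Both RON group means lay on 1 side of all 3 FGF receptor group means in 753 of the called genes, against 31.7% of all genes tested. The sign was the same within T1, T2 and T3 for 833 called genes, against 61.9% of all genes. Genes were called on these same arrays, and the arrays of a pair carry different T labels. Both counts therefore describe the calls and are not separate support for them. Across all genes the median difference was 0.005.

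**Figure D2:**
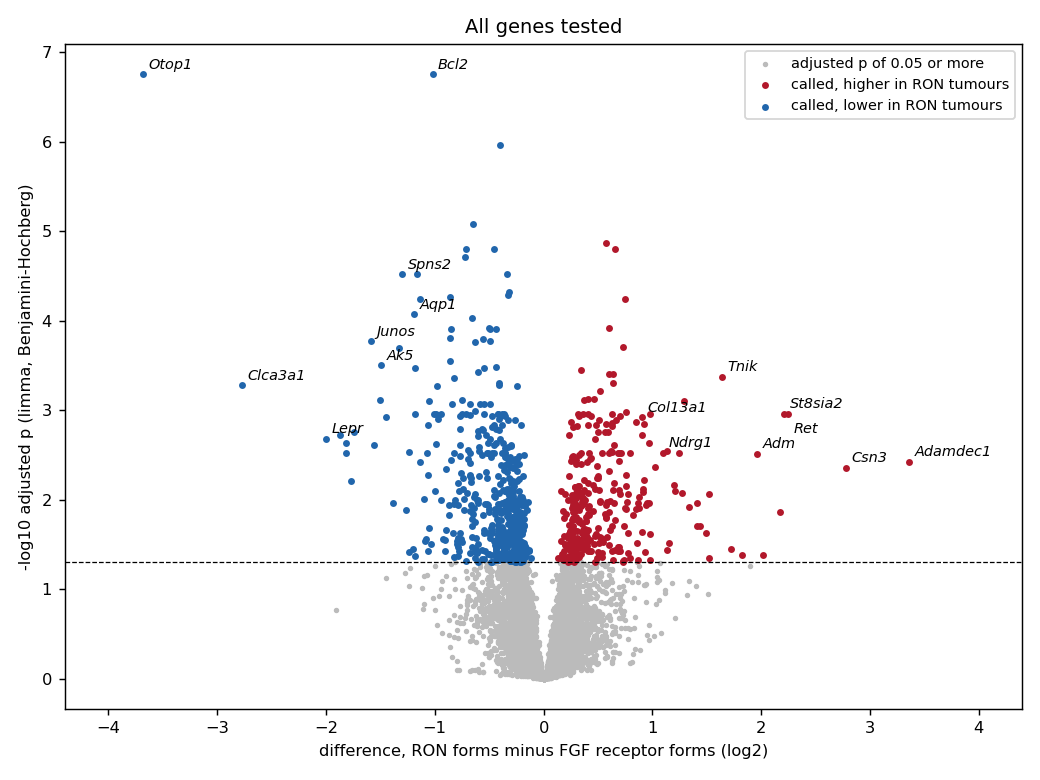
Difference between RON and FGF receptor tumours for 13868 genes, in log2 units, against the negative log10 of the adjusted p from limma, with called genes in colour and the line at 0.05. Otop1 and Bcl2 have the smallest adjusted p, 1.75e-07, and Adamdec1 has the largest positive difference among called genes, 3.36.

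Among the 12 genes with the largest higher levels in RON tumours were a secreted protease, a milk protein, a receptor kinase and a vasoactive peptide. Adamdec1, a secreted metalloprotease-like enzyme, ran from 6.68 through a median of 8.07 to 9.16 in RON arrays and from 3.71 through 4.23 to 6.53 in FGF receptor arrays. Every RON array therefore exceeded every FGF receptor array. The FGF receptor median lay below the filter level, the 40th percentile of an array (4.68 to 4.86). Values this low may lie near the background, so the size of the difference is uncertain. The difference was 3.36 ± 0.78 (SE, adjusted p = 0.00375), and 3.88 without the 2 pairs that share a chromosome pattern. Its call was lost when each pair was averaged to 1 value. These are bulk tumours, in which fewer cells of a type and less RNA per cell cannot be told apart.

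Csn3, which encodes kappa-casein, spanned 6.34 to 9.25 with a median of 8.47 in RON arrays and 4.50 to 7.15 with a median of 5.23 in FGF receptor arrays. Only the arrays of RON+MSP pair 3 (6.34 and 6.68) fell within the FGF receptor range. Its difference was 2.78 ± 0.65 (adjusted p = 0.00438), and 3.17 without the 2 pairs. The other 6 milk protein genes tested were not called, and the median of all 7 was 0.04.

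Ret, the receptor tyrosine kinase for ligands of the GDNF family, had a RON median of 8.10, between 5.85 and 8.83, and an FGF receptor median of 5.36, between 4.22 and 8.27. The sides were apart but for FGFR3 pair 3, at 7.97 and 8.27, and the lower RONd160 array of pair 3, at 5.85. The difference was 2.25 ± 0.46 (adjusted p = 0.00109), and 2.49 without the 2 pairs that share a chromosome pattern. Tnik, a kinase that acts in Wnt and JNK signalling, lay between 6.66 and 7.72 (median 7.25) in RON arrays and between 3.94 and 7.35 (median 5.49) in FGF receptor arrays. FGFR3 pairs 2 and 3, at 6.81 to 7.35, overlapped the RON arrays, and no other FGF receptor array did. Its difference was 1.64 ± 0.31 (adjusted p = 0.00042).

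St8sia2, which builds polysialic acid chains, ranged from 5.96 to 10.38 (median 7.32) in RON arrays and from 4.10 to 7.30 (median 5.40) in FGF receptor arrays. The highest values, 9.85 and 10.38, were those of RONd160 pair 3, and the difference was 2.21 ± 0.45 (adjusted p = 0.00109), and 2.62 without the 2 pairs. Adm, which encodes the vasodilator adrenomedullin, had a RON range of 9.21 to 11.94 (median 10.77) and an FGF receptor range of 7.19 to 10.99 (median 8.73). The ranges overlapped through FGFR2aIIIb pair 2, at 10.53 and 10.99, among others. The difference in Adm was 1.96 ± 0.44 (adjusted p = 0.00305), and 2.28 without the 2 pairs.

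The 6 other genes of this set were Serpinb2, a plasminogen activator inhibitor, at 2.17 ± 0.58 (adjusted p = 0.0138), Stmn2, a microtubule-destabilising protein of neurons, at 2.02 ± 0.63 (0.0414), and Aldh1a3, a retinaldehyde dehydrogenase, at 1.82 ± 0.57 (0.0419). Mmp12, the macrophage elastase, differed by 1.72 ± 0.53 (0.0358), Rnase2a, an eosinophil-associated ribonuclease, by 1.52 ± 0.48 (0.0449), and Chst8, a sulfotransferase, by 1.52 ± 0.38 (0.0086). Leaving out 1 pair of arrays ended the call of Stmn2 for 12 of the 15 pairs, of Aldh1a3 for 13, of Mmp12 for 10 and of Rnase2a for 11. Serpinb2 lost its call without RON+MSP pair 1 (1.84, adjusted p = 0.0745) or RONd160 pair 3 (1.99, 0.0502). Stmn2 was evenly high in RON arrays, between 11.19 and 12.35, and spread from 7.19 to 12.37 in FGF receptor arrays. Without the 2 pairs it differed by 2.45 and Mmp12 by 2.12. Most FGF receptor values of Rnase2a and Chst8 lay below the filter level.

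**Figure D3:**
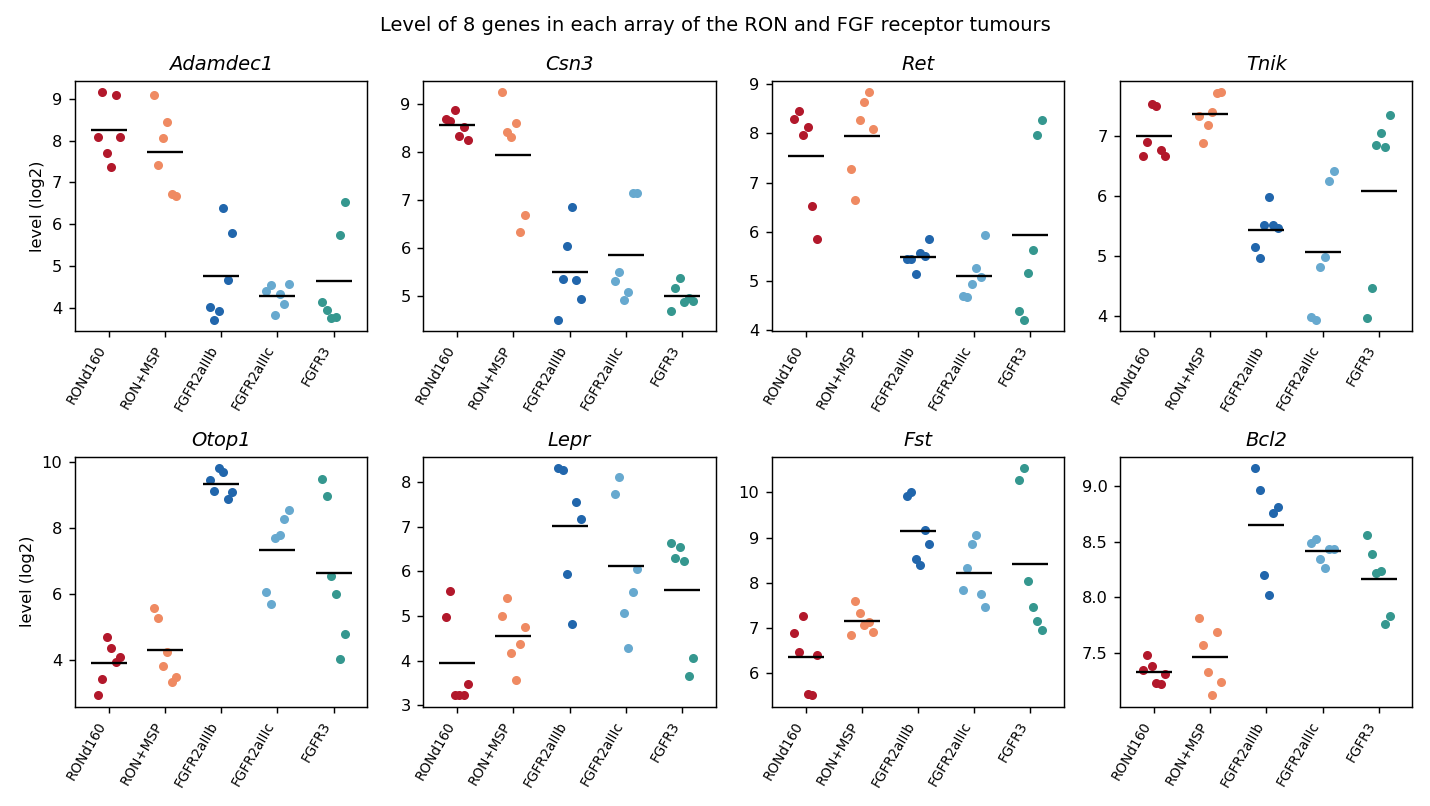
Log2 level of 8 genes in each of the 30 arrays by group, with points for arrays and lines for group means. Adamdec1 separates all 12 RON arrays from all 18 FGF receptor arrays, and in Ret, Otop1 and Lepr the FGFR3 points spread over both ranges.

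The genes lower in RON tumours were led by a proton channel, a channel regulator and the leptin receptor. Otop1, a proton channel, had RON values of 2.93 to 5.57 with a median of 4.01 and FGF receptor values of 4.03 to 9.82 with a median of 8.42. The FGFR3 arrays ran through that whole span, at 9.48 and 8.96 in pair 1, 6.54 and 6.01 in pair 2 and 4.03 and 4.79 in pair 3, and only pair 3 overlapped the RON arrays. The difference was -3.68 ± 0.46 (adjusted p = 1.75e-07), the largest in size among called genes. Clca3a1, a regulator of calcium-activated chloride channels, lay at 3.15 to 6.34 (median 4.71) against 3.85 to 11.40 (median 7.45). FGFR3 pairs 2 and 3 were both inside the RON range, and the difference was -2.77 ± 0.53 (adjusted p = 0.000523). The RON median of Otop1 lay below the filter level (4.68 to 4.86) and that of Clca3a1 within it. The sizes of both differences are therefore uncertain.

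Lepr, the leptin receptor, ranged from 3.22 to 5.57 (median 4.27) in RON arrays and from 3.66 to 8.32 (median 6.28) in FGF receptor arrays, with overlap in each of the 3 FGF receptor groups. It differed by -2.0 ± 0.43 (adjusted p = 0.00207), and its RON median also lay below the filter level. Fst encodes follistatin, a secreted protein that binds activins. Its RON values of 5.51 to 7.60 (median 6.91) lay mostly below the FGF receptor values of 6.95 to 10.54 (median 8.46), with a difference of -1.82 ± 0.40 (adjusted p = 0.00234). Dkk2, a secreted modulator of Wnt receptors, was at 8.10 to 9.21 (median 8.63) against 7.24 to 11.32 (median 10.49). The lowest array of all was one of FGFR3 pair 2, at 7.24 and 7.70, so that the ranges overlapped while the other 2 FGF receptor groups stayed at 9.82 or above. Its difference was -1.45 ± 0.30 (adjusted p = 0.00119).

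Junos, annotated as a transcript opposite Jun, lay between 5.78 and 6.24 (median 6.07) in RON arrays and spanned 6.22 to 9.0 (median 7.66) in FGF receptor arrays. The overlap was 1 array of FGFR3 pair 3, and the difference was -1.59 ± 0.28 (adjusted p = 0.000168). Thsd4, a matrix protein related to the ADAMTS enzymes, was at 5.50 to 6.88 (median 6.11) against 6.87 to 8.87 (median 7.56), and differed by -1.56 ± 0.34 (adjusted p = 0.00243). Lama5, the laminin alpha 5 chain of basement membranes, was at 6.2 to 8.91 (median 7.54) against 6.71 to 9.71 (median 9.23). Apart from FGFR3 pair 3, at 7.14 and 6.71, the lowest FGF receptor array was at 8.59. Its difference was -1.50 ± 0.29 (adjusted p = 0.000767).

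The remaining 4 of the 12 were Aqp5, a water channel of secretory epithelium, at -1.87 ± 0.40 (adjusted p = 0.00191), Itga8, an integrin chain, at -1.82 ± 0.41 (0.00299), Aspa, which cleaves N-acetylaspartate, at -1.74 ± 0.37 (0.00175) and Ak5, an adenylate kinase, at -1.49 ± 0.27 (0.000316). Itga8 moved to -2.34 without the 2 pairs that share a chromosome pattern, and RON+MSP pair 3 had the highest RON values, 6.93 and 7.40. Of the 24 leading genes, 19 kept their call whichever single pair was left out. All 24 kept it without those 2 pairs, but that fit drops FGFR3 pair 3, which often lay within the RON range. When each pair was averaged to 1 value, 14 kept their call.

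FGFR3 pair 3 stood on the RON side for many of these genes. Both of its arrays lay within the RON range in 14 of the 24 leading genes, 6 higher and 8 lower ones. The 8 other FGF receptor pairs did so in 1 to 8 genes. The 6 RON pairs lay within the FGF receptor range in 9 to 14 genes, with 14 in RON+MSP pair 1. The genes were chosen on a comparison that includes this pair, so the count is a description. The probe set of Met, the receptor closest to RON, was at 12.13 and 12.42 in FGFR3 pair 3 and at 9.64 to 10.15 in the other 16 FGF receptor arrays. No array of the other 8 groups was as high, the highest being at 12.06, and the RON arrays were at 9.24 to 9.78. Over all arrays Met differed by -0.66 ± 0.23 (adjusted p = 0.0671), and by -0.40 ± 0.19 without FGFR3 pair 3 (adjusted p = 0.223), so it was not called either way. Leaving out FGFR3 pair 1 or pair 2 instead gave -0.81 (adjusted p = 0.0247) and -0.78 (0.0362).

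Several genes outside the rule for leading genes are named after their values were seen, because the arrays of the 2 sides did not overlap or the test was among the strongest. In 10 called genes all 12 RON arrays lay above or all below the 18 FGF receptor arrays, and 11 of all genes tested did so (0.0793%; 4 above, 0.0288%, and 7 below, 0.0505%). Besides Adamdec1, the higher ones were Col13a1, a transmembrane collagen (0.90 ± 0.18, adjusted p = 0.0012), Csrnp1, a nuclear protein (0.56 ± 0.12, 0.00176), and Tubb6, a beta-tubulin (0.41 ± 0.09, 0.00147). Col13a1 lay between 5.87 and 6.87 in RON arrays and between 5.14 and 5.84 in FGF receptor arrays.

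The lower ones were Spns2, which exports sphingosine-1-phosphate from cells, Bin1, a membrane-bending protein, Ankle1, Pwwp2b and the unnamed genes 2900026A02Rik and A630026N12Rik. Spns2 ran from 6.85 to 7.27 in RON arrays and from 7.39 to 9.43 in FGF receptor arrays, a difference of -1.30 ± 0.20 (adjusted p = 3.00e-05). Bin1 ran from 8.87 to 9.45 and from 9.47 to 10.30, a difference of -0.63 ± 0.12 (adjusted p = 0.00103). With all its probe sets averaged Bin1 differed by -0.19 and was not called (adjusted p = 0.0773), and Tubb6 by 0.21 (0.0564). In both Spns2 and Bin1 the gap between the sides was narrow compared with the spread among FGF receptor arrays.

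Bcl2, which blocks the mitochondrial pathway of apoptosis, lay between 7.12 and 7.81 (median 7.34) in RON arrays and between 7.76 and 9.16 (median 8.41) in FGF receptor arrays. A single RON array was above the lowest FGF receptor array. It differed by -1.02 ± 0.12 (adjusted p = 1.75e-07), and was lower in each RON form, by -1.09 in RONd160 and -0.95 in RON+MSP. Aqp1, another water channel, differed by -1.19 ± 0.20 (adjusted p = 8.49e-05), and Hhip, which binds and restrains Hedgehog ligands, by -1.18 ± 0.22 (adjusted p = 0.000335). All RON arrays of Hhip, at 3.64 to 4.23, lay below the filter level of 4.68 to 4.86. Cldn6, a tight junction protein, differed by -1.77 ± 0.43 (adjusted p = 0.00613), with arrays of both sides spread widely, and lost its call without RON+MSP pair 3 (-1.34, adjusted p = 0.0548).

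Each side was also set against the 8 other groups, to see on which side of the series a difference lay. These 2 comparisons share the 8 groups, so their values are given side by side only. The leading genes were chosen on the same RON and FGF receptor arrays. Their calls against the 8 groups are therefore a description. RON tumours against the other groups gave 1147 called genes (8.27%), 508 higher (3.66%) and 639 lower (4.61%). FGF receptor tumours against the same groups gave 978 (7.05%), 592 higher (4.27%) and 386 lower (2.78%). Leaving out RON+MSP pair 1 or 2 or RONd160 pair 2 or 3 lowered the first count to between 488 and 630, and leaving out FGFR2aIIIb pair 1, FGFR2aIIIc pair 2 or FGFR3 pair 1 or 2 lowered the second to between 466 and 650.

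Of the 12 leading higher genes, 4 were called higher in RON tumours than in the other groups: St8sia2 by 1.68 ± 0.39 (adjusted p = 0.0042), Adm by 1.82 ± 0.39 (0.00189), Ret by 1.35 ± 0.40 (0.0233) and Tnik by 1.12 ± 0.27 (0.00497). The FGF receptor tumours were called lower than the other groups for 5: Adamdec1 (-2.30), Csn3 (-1.72), Serpinb2 (-1.43), Aldh1a3 (-1.50) and Rnase2a (-1.11). The MAP3K11 group had the highest mean of all 13 groups for 7 of the 12. Adamdec1, for example, averaged 11.02 in MAP3K11 tumours, 8.25 ± 0.73 in RONd160 and 7.74 ± 0.97 in RON+MSP. Both RON means were above all other groups for 3 genes, Ret, Adm and Tnik.

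Of the 12 leading lower genes, 9 were called higher in FGF receptor tumours than in the other groups. The differences were 2.54 for Otop1, 1.99 for Clca3a1, 1.47 for Lama5, 1.29 for Aspa, 1.26 for Aqp5, 1.18 for Thsd4, 1.13 for Lepr, 1.1 for Fst and 0.92 for Junos. RON tumours were called lower than the other groups for the 3 that remain, Itga8 (-2.18 ± 0.36, adjusted p = 6.17e-05), Dkk2 (-1.25 ± 0.26, 0.00144) and Ak5 (-1.08 ± 0.24, 0.00243). All 3 FGF receptor means were above those of the other groups for 2 genes, Fst and Junos. HER2 tumours were close behind for Fst, at 8.06 against 8.22 in FGFR2aIIIc.

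The 2 RON forms were each set against the same FGF receptor arrays, which both comparisons share. RONd160 gave 1219 called genes (8.79%), 491 higher (3.54%) and 728 lower (5.25%). RON+MSP gave 144 (1.04%), 57 higher (0.411%) and 87 lower (0.627%). Leaving out RONd160 pair 2 or 3 reduced the first count to 500 or 460. The second count went to 12 without RON+MSP pair 2 and to 334 without FGFR3 pair 3, and with each pair averaged to 1 value a single gene was called in RON+MSP, Zfp563 (-0.45 ± 0.07, adjusted p = 0.00656), named for that reason. Tested directly against each other, RONd160 and RON+MSP differed in 201 genes (1.45%).

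The leading genes were chosen on these same arrays, so their calls in each form are a description. Ret and Tnik were the 2 leading higher genes called in both forms. Ret differed by 2.06 ± 0.58 in RONd160 (adjusted p = 0.0152) and 2.44 ± 0.58 in RON+MSP (0.0227). Tnik differed by 1.47 ± 0.39 (0.0099) and 1.82 ± 0.39 (0.0102). Of the leading lower genes, 5 were called in both: Otop1 (-3.88 and -3.49), Clca3a1 (-2.76 and -2.79), Junos (-1.68 and -1.51), Thsd4 (-1.53 and -1.60) and Lama5 (-1.22 and -1.77). With each pair averaged, none of these 7 genes was called in RON+MSP (Ret at 2.44, adjusted p = 0.232, and Tnik at 1.84, 0.209), and 2 were called in RONd160, Otop1 (-3.87, 0.00766) and Junos (-1.66, 0.0452). Adamdec1 differed by 3.59 in RONd160 (adjusted p = 0.0129) and 3.13 in RON+MSP (0.105), and Csn3 by 3.11 (0.0099) and 2.44 (0.139). For both genes the difference between the 2 RON forms was smaller than its SE, 0.46 ± 1.20 and 0.68 ± 1.01.

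Other genes were called in 1 form and not in the other, which by itself does not show that the forms differ. St8sia2 differed by 2.96 in RONd160 (adjusted p = 0.000383) and 1.46 in RON+MSP (0.209), Itga8 by -2.56 (0.000721) and -1.08 (0.342), and Ak5 by -2.27 (9.25e-06) and -0.71 (0.351). Aqp5 went the other way, at -1.31 (0.0956) and -2.44 (0.00903). Among these 4, the direct test between the RON forms called Ak5, at -1.56 (adjusted p = 0.0415).

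**Figure D4:**
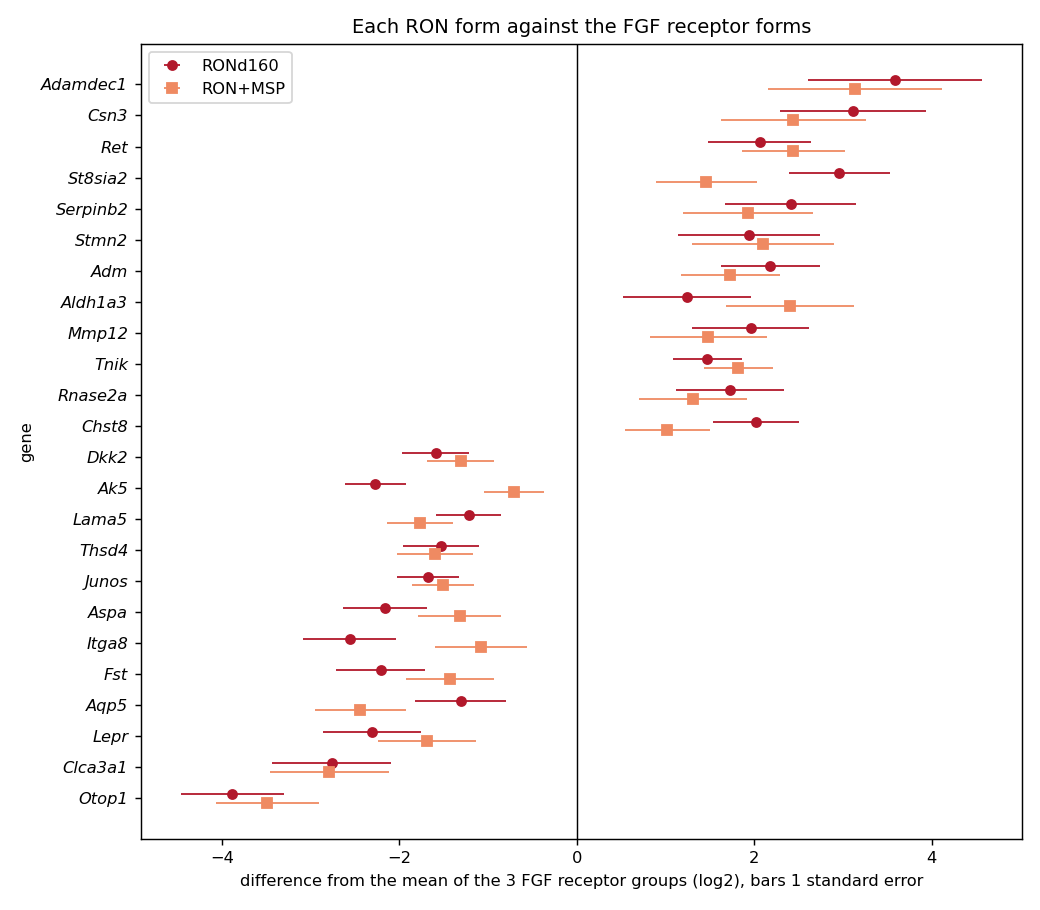
Difference from the FGF receptor tumours, in log2 units, of each RON form for the 24 leading genes, with circles for RONd160, squares for RON+MSP and bars of 1 SE. All 24 genes have the same sign in both forms, as the rule for choosing them requires, and St8sia2, Itga8 and Ak5 are farther from 0 in RONd160.

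In the hypoxia and glycolysis list, 10 of 24 tested members were called higher in RON tumours and none lower, where 2.28% of all genes were called higher. The median difference was 0.52, against 0.005 for all genes, and 23 of 24 members were above 0. Besides Adm, Ndrg1, a stress-induced gene, lay between 10.26 and 11.33 (median 10.94) in RON arrays and between 8.87 and 10.85 (median 9.85) in FGF receptor arrays. The sides overlapped in 4 RON arrays, and the difference was 1.1 ± 0.25 (adjusted p = 0.003). Slc2a1, the main glucose transporter of tumour cells, was at 10.92 to 12.16 (median 11.70) against 9.58 to 11.67 (median 10.62). The 6 highest RON arrays exceeded every FGF receptor array, and the difference was 0.97 ± 0.25 (adjusted p = 0.0109). Ero1a, an oxidase of the endoplasmic reticulum, was at 9.62 to 10.94 (median 10.19) against 8.33 to 10.26 (median 9.32). It differed by 0.86 ± 0.26 (adjusted p = 0.0304), a call that 7 of the 15 left-out pairs ended.

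The 6 further called members, named after their values were seen, were Pfkp (0.79 ± 0.18) and Pfkl (0.74 ± 0.21), both phosphofructokinases, the hexokinases Hk2 (0.51 ± 0.16) and Hk1 (0.46 ± 0.09), Vegfa (0.54 ± 0.17), the main angiogenic growth factor, and P4ha1 (0.53 ± 0.15), which hydroxylates collagen. Leaving out 1 pair ended the call of Hk2 for 11 pairs, of Vegfa for 10, of P4ha1 for 7 and of Pfkl for 5. Car9, a carbonic anhydrase widely used as a hypoxia marker, was 0.97 ± 0.49 (adjusted p = 0.254), and Bnip3 was 0.74 ± 0.28 (0.106). Ldha, Pgk1 and Gapdh differed by 0.20, 0.18 and 0.11 and were not called. Hk1, P4ha1 and Pfkl lie on chromosome 10, whose median was raised in the RONd160 pairs by 0.047, 0.135 and 0.257, and its part in their differences was not tested.

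As a mean over the list in each array, relative to all 76 arrays, RON arrays lay between -0.26 and 0.82 with a median of 0.49, and FGF receptor arrays between -0.70 and 0.55 with a median of -0.17. The group means were 0.56 in RONd160, 0.35 in RON+MSP, 0.01 in FGFR2aIIIb, -0.03 in FGFR2aIIIc and -0.35 in FGFR3. The arrays of the 2 sides overlapped. Those of RON+MSP ran from -0.26 in pair 3 to 0.79 in pair 1 and those of FGFR2aIIIb from -0.56 in pair 1 to 0.55 in pair 2. Means of the other 8 groups ran from -0.64 to 0.45, so that RON+MSP lay within them and RONd160 above them. Against these 8 groups RON tumours had 9 members called higher, where 3.66% of all genes were, with a median of 0.44. FGF receptor tumours had 0 higher (4.27% of all genes) and 1 lower (2.78%), with a median of -0.08. RONd160 alone had 7 members called above FGF receptor tumours (median 0.73), where 3.54% of all genes were called higher. RON+MSP had 1, Vegfa (median 0.46), where 0.411% of all genes were. Without the FGFR3 group 4 members were called, and without the 2 pairs that share a chromosome pattern 17. Leaving out single pairs gave 5 to 12. It gave 5 without FGFR2aIIIb pair 1, RON+MSP pair 1, RON+MSP pair 2, RONd160 pair 2 or RONd160 pair 3, and 6 without FGFR3 pair 1.

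**Figure D5:**
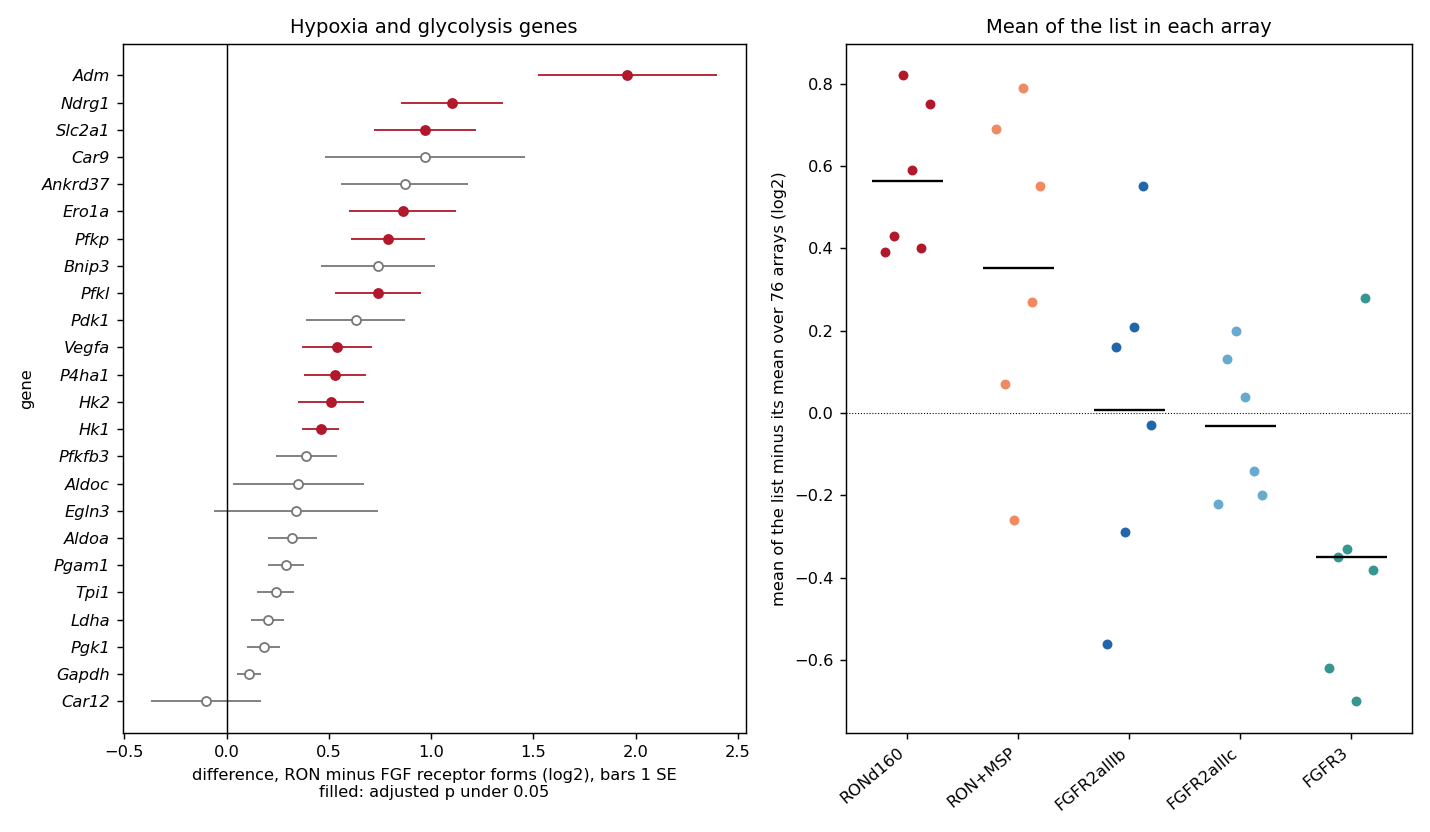
Left, difference in log2 units of the 24 hypoxia and glycolysis genes tested, with bars of 1 SE and filled points for called genes. Right, mean of the list in each array by group in log2 units relative to all 76 arrays, with lines at group means, which fall from 0.56 in RONd160 to -0.35 in FGFR3.

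Stress genes that act downstream of ATF4 and the endoplasmic reticulum were also called in 1 direction. Among 19 genes of the ATF4 list, 3 were higher (2.28% of all genes were) and none lower, with a median of 0.20. They were Ddit3, which encodes the stress factor CHOP (0.82 ± 0.22, adjusted p = 0.0147), Atf4 itself (0.33 ± 0.09, 0.0168) and Sesn2 (0.32 ± 0.09, 0.0287). Ddit3 lost its call without RON+MSP pair 1 (adjusted p = 0.069), Atf4 without FGFR2aIIIb pair 1 (0.0531) or RONd160 pair 2 (0.0823), and Sesn2 for 8 of 15 pairs. In the unfolded protein response list 2 of 17 were higher, Creld2 (0.51 ± 0.15, 0.0302; call lost for 7 pairs) and Edem1, which directs misfolded proteins to degradation (0.32 ± 0.06, 0.00109). Against the 8 other groups, RON tumours had 9 of these 17 called higher, against 3.66% of all genes, and FGF receptor tumours 2, against 4.27%. Against the FGF receptor tumours, RONd160 alone had 1 of the 17 higher and 1 lower (3.54% and 5.25% of all genes), with a median of 0.04. RON+MSP alone had none called, with a median of 0.29. In the ATF4 list RONd160 had 3 higher (median 0.16) and RON+MSP none called (median 0.23).

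Of 22 ERK pathway genes, an output shared by both receptor families, 2 were higher and 1 lower, where 2.28% and 3.74% of all genes were, and the median was 0.10. Dusp5, a nuclear ERK phosphatase, lay between 9.17 and 10.30 (median 9.66) in RON arrays and between 8.55 and 9.58 (median 8.86) in FGF receptor arrays. It differed by 0.78 ± 0.20 (adjusted p = 0.00868), with 8 RON arrays above every FGF receptor array. Phlda1 differed by 0.59 ± 0.13 (0.00177). Etv5, a transcription factor induced by FGF signalling, differed by -0.44 ± 0.14 (0.0469), a call that 10 of the 15 left-out pairs ended. The other feedback genes were not called: Dusp6 at -0.28 ± 0.14, Etv4 at -0.25 ± 0.12, Spry2 at 0.32 ± 0.19 and Spry4 at 0.18 ± 0.13. None of the 19 immediate early genes was called either (median 0.14), Egr1 being at 0.62 ± 0.22 (adjusted p = 0.0769).

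Receptors and ligands of the 2 families themselves gave no call, where 6.01% of all genes were called. The counts were 0 of 11 in the RON and MET list (median 0.18) and 0 of 12 among FGF receptors and adaptors (0.10). Among FGF ligands the count was 0 of 9 (0.06). At that share, lists this short may well hold no call. Macc1, a regulator of Met transcription, was at 9.44 to 10.58 in RON arrays and 8.24 to 9.91 in FGF receptor arrays, 0.70 ± 0.33 apart (adjusted p = 0.212). Against the 8 other groups it was called higher in both, by 1.82 ± 0.29 in RON and 1.12 in FGF receptor tumours. Hgf, the ligand of MET, differed by 0.57 ± 0.35 and Fgfr1 by 0.23 ± 0.15, neither called.

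Among FOXO target genes, which PI3K-AKT signalling restrains, 1 of 18 was higher and 3 were lower, against 2.28% and 3.74% of all genes, and the median was -0.19. Insr, the insulin receptor, and Igf1r, the IGF1 receptor, were lower by -0.47 ± 0.11 (adjusted p = 0.00301) and -0.55 ± 0.11 (0.00109). Igf1r lay at 8.39 to 9.19 (median 8.89) in RON arrays and 9.13 to 9.73 (median 9.39) in FGF receptor arrays, with 10 RON arrays below every FGF receptor array. The Insr call was lost, and its difference was -0.10, when all its probe sets were averaged (adjusted p = 0.374). Pik3ip1, an inhibitor of PI3K, was lower by -0.66 ± 0.18 (0.0164), a call lost without FGFR2aIIIb pair 3 (0.0534) or FGFR3 pair 2 (0.0512). Ddit4, which restrains mTORC1 and also responds to hypoxia, was higher by 0.91 ± 0.23 (0.00821), a call lost without RONd160 pair 3 (0.062).

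Genes of the TGF-beta and BMP pathway moved in both directions, 1 higher and 3 lower of 19 (2.28% and 3.74% of all genes), with a median of -0.03. Inhba, which encodes the activin A subunit, lay between 10.54 and 11.52 (median 11.05) in RON arrays and between 9.31 and 10.93 (median 10.16) in FGF receptor arrays. It was higher by 0.87 ± 0.23 (adjusted p = 0.011), while Fst, the binder of its product described above, was lower. Bmp7 (-1.24 ± 0.38, 0.0383), Bmp4 (-1.06 ± 0.32, 0.0373) and Id1, a direct BMP target (-0.80 ± 0.24, 0.0313), were lower, and these calls were lost for 11, 10 and 9 of the 15 left-out pairs. Bmp7 was also not called without the 2 pairs that share a chromosome pattern (-1.08, adjusted p = 0.109). In the Notch list Jag1, a ligand, was higher (0.78 ± 0.24, 0.0395; lost for 8 pairs) and Nrarp, a feedback inhibitor and target, lower (-0.75 ± 0.15, 0.00109). Of 24 Wnt genes, Dkk2 was the single call, and of 12 YAP targets Crim1 (-0.62 ± 0.18, 0.0265; lost for 6 pairs) and Axl (-0.29 ± 0.07, 0.00982) were lower. Axl was not called when all its probe sets were averaged (-0.08, adjusted p = 0.49).

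Among matrix proteases and their inhibitors 3 of 24 were higher (2.28% of all genes), Serpinb2, Mmp12 and the aggrecanase Adamts4 (0.69 ± 0.16, adjusted p = 0.00367). Adamts4 was at 9.99 to 10.92 in RON arrays and 8.71 to 10.45 in FGF receptor arrays, 3 RON arrays being above all of the latter. Of 29 chemokine ligands 3 were called higher (2.28% of all genes), Cxcl11 (1.15 ± 0.34, 0.0307), Ccl11 (0.98 ± 0.32, 0.0478) and Ccl17 (0.73 ± 0.24, 0.0496). Their calls were lost for 10, 11 and 13 of the 15 left-out pairs, and all 3 were lost without the 2 pairs that share a chromosome pattern. Cxcl11, which interferon induces, was high in RONd160 pairs 1 and 2 alone, at 7.40 to 8.59, with every other RON array at 5.36 or below.

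Macrophage genes had no positive difference, and 2 of them passed the test. Of 21 macrophage and monocyte genes 2 were called lower, where 3.74% of all genes were, and none higher, and all 21 differences were at or below 0, with a median of -0.43. Mrc1, the mannose receptor, lay between 8.82 and 10.48 (median 10.26) in RON arrays and between 10.16 and 11.06 (median 10.83) in FGF receptor arrays, a difference of -0.82 ± 0.21 (adjusted p = 0.0111) that was not called without RONd160 pair 3 (0.0805). Cd14 differed by -0.50 ± 0.13 (0.0136) and lost its call without RON+MSP pair 1 (0.085) or RONd160 pair 3 (0.0826). The list's mean per array ran from -1.15 to 0.34 on the RON side and from -0.53 to 0.69 on the other. Csf1, the growth factor of macrophages, was lower by -0.87 ± 0.23 (0.0114), a call lost without RON+MSP pair 1 (0.0732) or RONd160 pair 3 (0.0859).

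No member was called among 19 fibroblast (median 0.22), 19 endothelial (0.23), 12 T and NK cell (0.17), 13 adipocyte (median at 0) and 24 skeletal muscle genes (-0.30). Of all genes 6.01% were called, a share at which such lists would hold few calls. Differences were above 0 for 18 fibroblast, 19 endothelial, 11 T and NK cell, 6 adipocyte and 3 muscle genes. Medians in RONd160 and RON+MSP were -0.08 and 0.49 for fibroblast, 0.05 and 0.45 for endothelial and 0.14 and 0.22 for T and NK cell genes. They were 0.21 and -0.26 for adipocyte and -1.2 and 0.53 for muscle genes. The muscle list varied widely within both sides, from -1.40 to 3.24 in RON arrays and from -1.38 to 2.95 in FGF receptor arrays. With its mean as a covariate, 81 of the 84 called genes named here kept their call. Interferon response genes had no call of 31 (median 0.35) between the 2 sides, while 10 of 31 were called higher in RONd160 (median 0.89; 3.54% of all genes) and none in RON+MSP (median -0.17; 0.411% of all genes). Tested directly with limma, none of the 31 was called between RONd160 and RON+MSP, where 0.793% of all genes were called higher. All 31 differences were above 0, with a median of 1.12 against 0.014 for all genes. The mean of this list was 0.90 in RONd160, 0.49 in FGFR3 and -0.16 in RON+MSP.

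Of 28 proliferation genes 1 was lower, where 3.74% of all genes were, Nusap1 (-0.37 ± 0.12, adjusted p = 0.04; lost for 11 of 15 left-out pairs), and the median was -0.09. Of 30 respiratory chain genes 2 were lower, Ndufv2 (-0.21 ± 0.04, 0.00147) and Atp5c1 (-0.12 ± 0.04, 0.0445; lost for 12 pairs). Of 12 keratins none was called (median 0.04), and Aldh1a3 was the only call among 15 luminal markers. Cldn23 was the single called gene of 19 in the epithelial junction list (0.75 ± 0.20, 0.0125; lost without RONd160 pair 3, adjusted p = 0.0568). The difference was 1.36 in RONd160 and 0.15 in RON+MSP. All FGF receptor arrays (3.25 to 4.56) and RON+MSP arrays (3.60 to 4.12) lay below the filter level of 4.68 to 4.86. RONd160 arrays lay at 4.69 to 5.88, so the call rests on that form.

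Called genes were unevenly spread over the chromosomes. Chromosome 17 held 86 calls among 682 genes tested (12.6%), 81 of them lower and 5 higher, and its median difference was -0.084. In RONd160 the median was -0.138 with 166 genes called (24.3%), and in RON+MSP -0.017 with 10 called (1.47%). The median was low in each RONd160 pair, at -0.136, -0.117 and -0.177, and also in FGFR3 pair 1, at -0.101. Chromosome 2 held 93 calls of 1092 (8.52%), 87 of them lower, and chromosome 10 held 51 of 661 (7.72%), 44 of them higher. Off these 3 chromosomes 604 of 11433 genes were called (5.28%). None of the 24 leading genes lies on chromosome 17, and 2, Itga8 and Lama5, lie on chromosome 2. Of the called genes named here, Cldn6 (-1.77, the largest difference in size among the 86), Crim1, Ndufv2 and Vegfa lie on chromosome 17. On chromosome 15, 35 of 561 genes were called (6.24%), 27 of them higher. The median difference there was 0.129 in RONd160 and -0.033 in RON+MSP. Beyond the leading genes and Hk1, P4ha1 and Pfkl, named genes on chromosomes 2, 10 and 15 are not listed, and some may lie there. The part of chromosome medians in the difference of any single gene was not tested.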

How the data were processed

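Gene expression was measured on 76 arrays of mouse tumour RNA in 13 groups. The deposited values are log2 expression values per probe set, between 1.77 and 14.18. The submitters' processing notes name the affy package. Its version and the normalization method are not given in the sources used here, so values were kept as deposited. Array medians of the 5 groups lay between 5.45 and 5.55, no pair of arrays held identical values, and the number of arrays limits the precision.

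Probe sets were named from the platform annotation (34958 with 1 gene, 932 with several, 9211 with none), and the probe set with the highest mean over all arrays stood for each gene. A gene was tested if it exceeded the 40th percentile of its array (4.68 to 4.86) in at least 4 arrays. limma 3.58.1 (R 4.3.3, statmod 1.5.0) was fitted on all 76 arrays with the 13 groups and the T label as fixed terms. Pairs of arrays, matched within a group on the correlation of autosome medians (38 pairs), were a random block with a consensus correlation of 0.628. Tests are two-sided, with Benjamini-Hochberg adjustment over 13868 genes. The errors of differences are standard errors, and means carry the SD over 6 arrays. The fit was tested on simulated data.

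Leading genes are the 12 highest and 12 lowest differences among called genes with both RON means on 1 side of the FGF receptor means. Up to 4 called members of each of 43 lists (706 members tested) are named too, and 19 further genes were chosen after their values were seen. The comparison, the members and the lists were chosen with earlier results of these data known. Alternatives changed the block, the T term, the filter, the scaling, the probe set rule, the arrays fitted, the threshold and a muscle covariate, and left out groups or single pairs of arrays. Promoters are RefSeq entries of GRCm38.p6. Tables were made with Python 3.11.15 and pandas 2.3.3.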

Additional observations from a re-analysis of the deposited data

Results flagged for a closer look

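In 9 of 420 sets of 1 named gene in 1 group of 6 arrays (2.14%), a single array lay far from the other 5. The arrays of a group form related pairs, and how many sets chance would mark was not tested. Serpinb2 was 6.06 in FGFR3 T2 replicate 2, with the others at 3.43 to 4.4. Col13a1 was 5.79 in the same array, with the others at 5.19 to 5.26. Mmp12 was 8.28 in RON+MSP T2 replicate 1, with the others at 9.28 to 9.79. Rnase2a was 5.75 in FGFR2aIIIc T2 replicate 1 against 4.0 to 4.62, and in that array Ankle1 was 6.32 against 6.64 to 6.83. Junos was 5.78 in RON+MSP T3 replicate 2 against 6.12 to 6.24, and Insr was 8.09 in RON+MSP T1 replicate 2 against 7.72 to 7.84. RONd160 T1 replicate 3 held both others, Creld2 at 9.91 against 10.19 to 10.35 and Cldn23 at 5.88 against 4.69 to 5.11.

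For 3 named genes the 2 RON forms differed when tested directly with limma. Ak5 was lower in RONd160 than in RON+MSP, by -1.56 (adjusted p = 0.0415). Its differences from the FGF receptor tumours were -2.27 and -0.71. Cxcl11 was higher in RONd160 by 2.01 (adjusted p = 0.0369), with differences of 2.15 and 0.14. Cldn23 was higher in RONd160 by 1.21 (adjusted p = 0.0327), with differences of 1.36 and 0.15.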

How the results depend on the processing

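No difference of the 84 called genes named here changed sign in any alternative run, and 30 of them were called in each, with 13 of the 24 leading genes among them. With each pair averaged, 39 of the 84 kept their call and 45 did not. With all probe sets of a gene averaged, 74 kept it. Counts of calls over all genes also moved. The 834 calls of RON against FGF receptor tumours became 2752 without the pair block, 383 with each pair averaged, 1408 in a fit of the 30 arrays, 475 without FGFR2aIIIb and 321 at an adjusted p under 0.01. The 1147 calls of RON tumours against the other 8 groups became 3498 without the block, 670 with pairs averaged and 377 at 0.01. The 978 calls of FGF receptor tumours against them became 3258, 586 and 339, and 149 without FGFR2aIIIb or 642 without FGFR2aIIIc. For RONd160 the 1219 calls became 3346 without the block, 1861 in the 30 arrays, 736 without FGFR2aIIIb and 497 at 0.01. For RON+MSP the 144 became 1289 without the block, 1 with pairs averaged, 388 in the 30 arrays, 55 without FGFR2aIIIb, 37 without FGFR2aIIIc and 19 at 0.01. The 10 hypoxia members became 20 without the block, 6 with pairs averaged, 4 without FGFR3, 17 without the 2 pairs that share a chromosome pattern and 4 at 0.01. Why these counts moved was not tested.

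Leaving out 1 pair at a time gave 458 (without RON+MSP pair 2; 511 without RONd160 pair 2) to 1071 calls for RON against FGF receptor tumours, 488 to 1236 and 466 to 1133 against the other 8 groups, 460 to 1253 for RONd160, 12 to 334 for RON+MSP, and 5 to 12 hypoxia members. With the replicate number as a block 825 genes were called. These numbers do not pair the arrays: deviations of arrays with the same number had a median correlation of -0.01, and 11 of 30 arrays matched their own number best.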

Other observations

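The lists not described so far held 0 to 3 calls each between RON and FGF receptor tumours, where 6.01% of all genes were called. Of 20 NF-kB targets and inflammatory cytokines, Nfkbia, the inhibitor that NF-kB itself induces, was higher by 0.31 ± 0.09 (adjusted p = 0.0226 from limma, call lost for 5 of the 15 left-out pairs), and Csf1 was lower. Of 10 genes of class II antigen presentation, Cd80, a costimulatory ligand of T cells, was higher by 0.85 ± 0.23 (adjusted p = 0.0128). Cd80 lost its call without RON+MSP pair 2 (adjusted p = 0.0858), RONd160 pair 1 (0.0779) or RONd160 pair 2 (0.0525). The dendritic cell list had 1 call of 9, Itgax, at 0.86 ± 0.28 (adjusted p = 0.05 after rounding), which 12 left-out pairs ended. It was not called either without the 2 pairs that share a chromosome pattern (0.87, adjusted p = 0.073).

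Of 16 factors of the mesenchymal switch, 2 were higher and 1 lower, where 2.28% and 3.74% of all genes were. Foxc2 was higher by 0.66 ± 0.20 (adjusted p = 0.0362) and Zeb1 by 0.38 ± 0.11 (0.021), with the calls lost for 10 and 5 left-out pairs, and Axl was lower. RONd160 alone had none higher and 1 lower (5.25% of all genes), with a median of -0.24. RON+MSP alone had 2 higher (0.411% of all genes) and none lower, with a median of 0.07. Srebf2, which drives sterol synthesis genes, was the single call of 23 in its list, at 0.31 ± 0.10 (adjusted p = 0.0438, lost for 12 pairs; 0.0739 without the 2 pairs that share a chromosome pattern). Its level was 9.52 ± 0.14 (SD, n = 6) in RONd160, 9.0 ± 0.12 in RON+MSP and 8.81 to 9.05 in the FGF receptor groups. Of 12 basal and myoepithelial genes, Itgb4, the integrin chain of hemidesmosomes, was lower by -0.47 ± 0.15 (adjusted p = 0.0496, lost for 12 pairs; 0.0654 without those 2 pairs).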
